A study of Mus musculus with 17 samples.

Results

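SU6656, a small-molecule inhibitor of Src family kinases, was set against its vehicle in quiescent NIH 3T3 fibroblasts, a mouse line of embryonic origin. The comparison was made of 3 contrasts that share no array, and it used 6 of the 17 arrays of the series. In the Src experiment, cells given SU6656 at 2 µM were set against vehicle-treated cells, and cells given SU6656 at 2 µM with PDGF at 25 ng/ml for 1 h were set against cells given PDGF alone at the same dose and time. In a repeat of that experiment the second contrast was made again, and SU6656 without PDGF was not part of it. The labels do not give the length of SU6656 exposure. Each condition was 1 array of total RNA per experiment, so a single contrast has no replicate of its own. The Src experiment also held LY294002 at 7.5 µM, a PI3K inhibitor, and UO126 at 10 µM, a MEK inhibitor, each with and without PDGF, and these 4 arrays were used to compare SU6656 with the other inhibitors. The repeat shared its set of 9 arrays with a MEK inhibitor experiment, whose labels give no PDGF time. Its cells were untreated or given the MEK inhibitors UO126 at 10 µM or PD98059 at 7.5 µM. Each of these was done with and without PDGF at 25 ng/ml. Those arrays entered a fit of the repeat, and the untreated and PDGF arrays also helped to choose PDGF-induced genes. The Src experiment and its repeat were run on different array designs with different probe sets, so ratios were taken within an experiment and only their direction and size were set side by side.

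Src family kinases are cytoplasmic tyrosine kinases that bind the activated PDGF receptor and pass its signal on, among other routes, to the transcription factors that turn on immediate early genes. Those genes need no new protein for their induction and encode transcription factors, cytokines and feedback inhibitors. Cholesterol synthesis, the other gene group described here, runs from acetyl-CoA through mevalonate and squalene to cholesterol, and the transcription factor SREBP-2 controls most of its enzymes together, binding a sterol element near promoters beside the CCAAT-binding factor NF-Y.

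The 6 arrays were alike in overall signal, with medians of 151.9 to 197.8 units and Gapdh 3′ to 5′ ratios of 0.760 to 0.833. The fibroblast collagens Col1a1 and Col1a2 had deposited signals of 41879.5 and 45036.0 with SU6656, against 32430.0 and 35044.3 with vehicle. Of 15 fibroblast markers, 13 were kept after the filter on dim probe sets in the Src experiment, and their summed signal was 214618 to 256819. For SU6656 over vehicle 5 of these 13 had a ratio below 0, and the median log2 ratio over the 13 was 0.03. The kept leukocyte markers, 5 of 9, summed to 1096 to 1373 units there, and the kept epithelial, endothelial, adipocyte and muscle markers were no brighter than 727.4 units each. In the repeat 14 of the fibroblast markers were kept and summed to 137689 to 145071, and 4 leukocyte markers summed to 1866 with PDGF and SU6656 against 1423 with PDGF, of which Cd14, a monocyte receptor, read 1422.6 with PDGF and SU6656 against 1043.2 with PDGF. The part of these markers in the results was not tested. In such RNA, fewer expressing cells and less RNA per cell cannot be told apart. On the arrays of the repeat the fibroblast marker Vim, vimentin, read only 76.4 with PDGF and SU6656 and 82.5 with PDGF.

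SU6656 lowered genes of cholesterol synthesis in the Src experiment, with and without PDGF. A limma fit to its 8 arrays with PDGF and the 3 inhibitors as terms called 17 of 15838 probe sets lower with SU6656, or 0.107%, and 0 higher, or 0%, at a Benjamini-Hochberg adjusted p of 0.05. At an unadjusted p of 0.05 the counts were 655 lower, or 4.14%, and 615 higher, or 3.88%. Of the 17, 15 belong to 9 named genes and 2 are unnamed in the annotation. The 9 genes are Hmgcs1, Idi1, Fdft1, Sqle, Cyp51, Msmo1 and Sc5d, which encode enzymes of cholesterol synthesis, Stard4, which encodes a cholesterol transport protein, and Aacs, which encodes an enzyme that activates acetoacetate for lipid synthesis. The fit's residual is not a spread of replicates, since it holds any difference in a treatment's effect with and without PDGF. The count of 17 was 0 without the vehicle array, 2 without the PDGF array, 7 without the SU6656 array and 14 to 19 without any 1 of the other 5. It was also 0 without the PDGF term, 0 without the variance trend of limma, and 11 without the filter on dim probe sets.

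The RefSeq promoter table, of build GRCm38.p6, holds 6 of these 9 genes, and 4 of their upstream sequences are shown as examples of genes whose transcripts moved together. Those of Aacs and Sc5d, also called lower, are not shown. Each run is the 250 bases before the gene start on the gene's own strand, and capitals mark matches to TCACNCCAC, a form of the sterol element, and to CCAAT, the core of the NF-Y site, on either strand. The 2 motifs did not overlap in these sequences. Hmgcs1 lies at chr13:119690101-119690350 (+ strand), Msmo1 at chr8:64733579-64733828 (- strand), Idi1 at chr13:8885356-8885605 (+ strand) and Cyp51 at chr5:4104698-4104947 (- strand).
Hmgcs1: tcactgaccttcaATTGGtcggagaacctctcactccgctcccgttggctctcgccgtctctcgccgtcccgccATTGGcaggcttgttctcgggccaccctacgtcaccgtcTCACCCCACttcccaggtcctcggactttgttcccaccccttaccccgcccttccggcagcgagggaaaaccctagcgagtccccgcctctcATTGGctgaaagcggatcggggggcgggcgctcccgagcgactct
Msmo1: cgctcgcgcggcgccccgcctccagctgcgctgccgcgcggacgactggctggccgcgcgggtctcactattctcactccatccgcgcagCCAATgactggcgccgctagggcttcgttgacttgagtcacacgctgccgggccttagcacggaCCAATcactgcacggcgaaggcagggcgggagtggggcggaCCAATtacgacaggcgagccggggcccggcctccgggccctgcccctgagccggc
Idi1: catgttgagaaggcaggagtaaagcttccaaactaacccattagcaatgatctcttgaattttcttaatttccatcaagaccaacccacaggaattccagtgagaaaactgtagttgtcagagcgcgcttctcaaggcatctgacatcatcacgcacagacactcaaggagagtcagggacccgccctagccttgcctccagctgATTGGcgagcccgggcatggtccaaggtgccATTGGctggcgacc
Cyp51: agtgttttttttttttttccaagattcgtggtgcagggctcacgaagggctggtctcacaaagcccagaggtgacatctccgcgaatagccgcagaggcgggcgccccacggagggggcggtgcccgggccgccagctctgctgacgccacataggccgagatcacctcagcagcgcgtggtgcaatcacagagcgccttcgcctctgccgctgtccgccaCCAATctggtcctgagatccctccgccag

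The Hmgcs1 sequence held 1 match to the sterol element, starting 137 bases before the gene start, and 3 to CCAAT. The Msmo1 sequence held 3 CCAAT matches, that of Idi1 held 2 and that of Cyp51 held 1, all without a match to the sterol element as spelled. Over the 6 called genes in the table, 5 had a CCAAT match and 1, Hmgcs1, had the sterol element. Aacs had a match to neither motif, and Sc5d had 1 to CCAAT. Over all 32851 promoters of the same length in the table, 33.8% held CCAAT and 1.05% held TCACNCCAC. The table holds 26 promoters of 19 measured members of the sterol and lipid list below, and 17 of these promoters, or 65.4%, held CCAAT. Counted by gene, 16 of the 19 had CCAAT in at least 1 promoter, as did 10133 of all 27025 genes. These matches describe letters in a window and were not measured as bound sites.

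**Figure D1:**
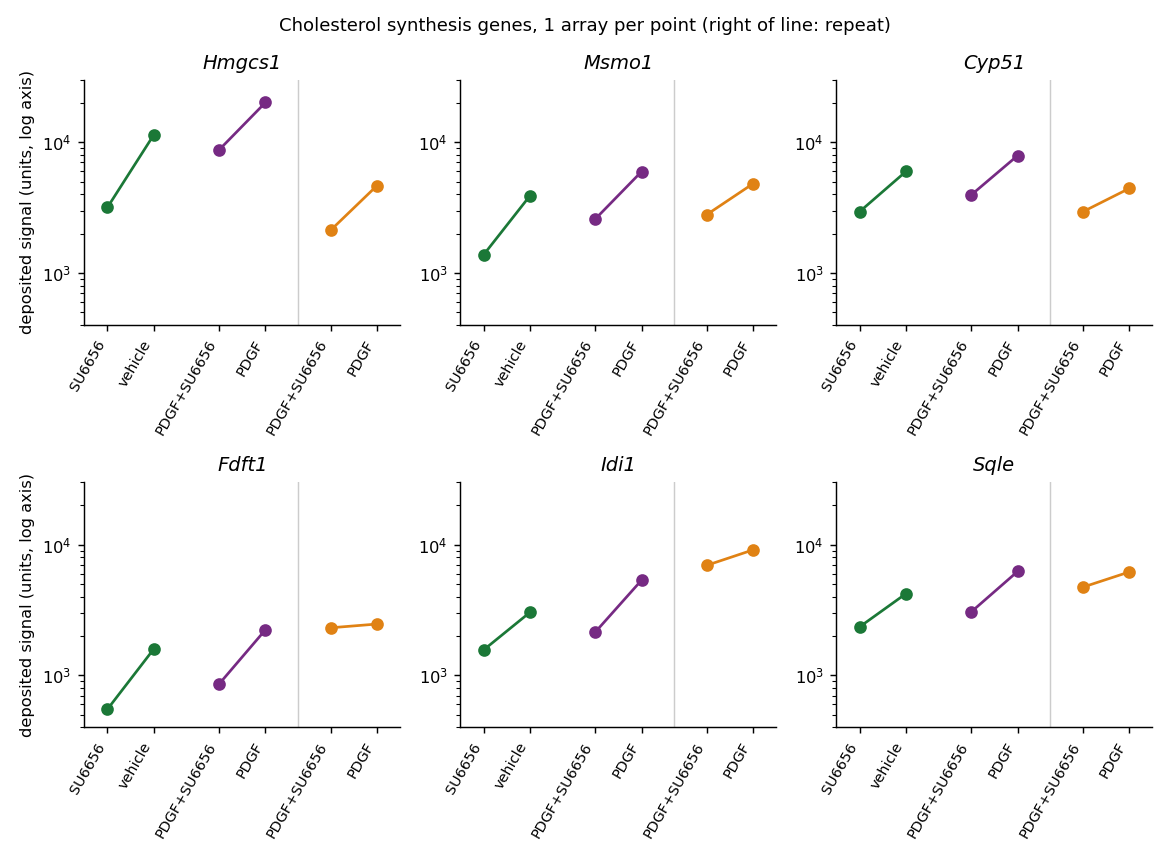
Deposited signal (units, log axis) of 6 cholesterol synthesis genes on each of the 6 arrays, 1 point per array, with a line joining each SU6656 array to its control; the grey line sets off the repeat, which has other probe sets. The SU6656 point is the lower one of each pair in all 6 genes, and the pair of Fdft1 in the repeat, 2310.1 against 2467.9, is nearly level.

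Hmgcs1 encodes the cytosolic HMG-CoA synthase that feeds the mevalonate route, and it had the largest change among the called genes. Its deposited signal was 3175.2 with SU6656 against 11424.9 with vehicle, 8715.2 with PDGF and SU6656 against 20098.2 with PDGF, and 2118.6 against 4655.5 in the repeat. The SU6656 array was the lower of the pair each time, and the array with PDGF and SU6656 also lay below the vehicle array. The log2 ratios of the 3 contrasts were -1.83, -1.32 and -1.13, with a mean of -1.43 ± 0.36 (SD, n = 3 contrasts). All 4 of its probe sets were called in the Src experiment, and limma gave -1.57 (SE 0.154, adjusted p = 0.00545) at the brightest. The other 3 had -1.76, -1.83 and -1.87. The probe set at -1.87 had -2.33 to -1.40 with single arrays left out, and it missed the threshold without the vehicle, PDGF, SU6656 or either LY294002 array, with adjusted p up to 0.277.

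Msmo1 and Cyp51 encode oxidases that remove methyl groups from lanosterol and its products. Msmo1 read 1377.2 with SU6656 against 3902.0 with vehicle, 2578.5 with PDGF and SU6656 against 5962.1 with PDGF, and 2789.7 against 4821.0 in the repeat. Cyp51 read 2946.5 with SU6656 against 5989.9 with vehicle, 3949.8 with PDGF and SU6656 against 7904.7 with PDGF, and 2936.8 against 4429.6 in the repeat. Both were lower with SU6656 in every pair of arrays. In the limma fit Msmo1 changed by -1.35 (SE 0.104, adjusted p = 0.00204) and Cyp51 by -1.03 (SE 0.0874, adjusted p = 0.00302) on the log2 scale. Their log2 ratios in the repeat were smaller, -0.78 for Msmo1 and -0.59 for Cyp51.

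Fdft1 encodes squalene synthase, the first step committed to sterols, and Sqle encodes squalene epoxidase. Fdft1 read 551.4 with SU6656 against 1596.3 with vehicle and 857.0 with PDGF and SU6656 against 2231.8 with PDGF, but 2310.1 against 2467.9 in the repeat. Its log2 ratios were -1.51 and -1.34 in the Src experiment and -0.11 in the repeat, and limma gave -1.42 (SE 0.127, adjusted p = 0.00302) in the Src experiment. The probe sets of Fdft1 disagreed there, since 1 dim probe set had 0.10 and another -0.33, with 2 called and 2 not. Sqle read 2349.8 with SU6656 against 4221.7 with vehicle, 3054.6 with PDGF and SU6656 against 6234.5 with PDGF, and 4719.1 against 6168.9 in the repeat. All 3 pairs of Sqle ran the same way, with limma giving -0.94 (SE 0.1, adjusted p = 0.00824) in the Src experiment and a log2 ratio of -0.32 in the repeat.

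Idi1, isopentenyl diphosphate isomerase, read 1563.4 with SU6656 against 3037.1 with vehicle, 2134.1 with PDGF and SU6656 against 5339.7 with PDGF, and 6930.0 against 9100.5 in the repeat. Sc5d, sterol C5-desaturase, read 433.8 with SU6656 against 932.7 with vehicle, 679.0 with PDGF and SU6656 against 1413.8 with PDGF, and 210.0 against 264.7 in the repeat. Both were lower with SU6656 in every pair of arrays, with log2 ratios of -0.32 for Idi1 and -0.29 for Sc5d in the repeat. Stard4 read 381.5 with SU6656 against 852.8 with vehicle and 745.8 with PDGF and SU6656 against 1676.7 with PDGF. Aacs read 583.6 with SU6656 against 1299.2 with vehicle and 721.4 with PDGF and SU6656 against 1925.3 with PDGF. Neither Stard4 nor Aacs was among the genes kept on the repeat's array design. The limma log2 changes at the brightest probe sets were -1.14 for Idi1, -1.03 for Sc5d, -1.11 for Stard4 and -1.22 for Aacs, with adjusted p of 0.0192, 0.0127, 0.0127 and 0.00612.

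A list of 31 sterol and lipid genes, chosen with earlier results of these data known, showed the same direction beyond the called genes in the Src experiment. Of 26 members measured in the Src experiment, 8 were called lower and 0 higher, where 9 of all 9221 genes, or 0.0976%, were called lower at their brightest probe set. The 8 were 0 without the vehicle array, 1 without the PDGF array, 4 without the SU6656 array, and 4 without the array of PDGF with SU6656. Of the 26, 25 had a ratio below 0 for SU6656 over vehicle and 25 for PDGF with SU6656 over PDGF, with medians of -0.51 and -0.52. The medians over all genes in these contrasts were 0.03 and 0.01, and 45.2% and 48.3% of all genes lay below 0. In the repeat 14 of 20 members lay below 0, with a median of -0.16, against 48.7% and a median of 0.01 over all genes. Those 14 include Hmgcs1, Msmo1, Cyp51, Fdft1, Idi1, Sqle and Sc5d, which were called in the Src experiment. The members not called had both signs in the repeat, such as Lss at -0.33 and Fasn at 0.07. At least 1.5-fold lower were 11 members for SU6656 over vehicle, 12 under PDGF and 3 in the repeat, where 4.93%, 4.87% and 7.83% of all genes were. At least 1.5-fold higher were 0 members in each, where 5.08%, 4.74% and 7.56% of all genes were. The 3 members at least 1.5-fold lower in the repeat were the called genes Hmgcs1, Msmo1 and Cyp51. Of the 20 members measured in both experiments, 13 were lower in all 3 contrasts and 0 were higher in all 3, where the shares over all 5530 genes in both tables were 12.6% and 16.3%.

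Within the list the members are given by their step, and differences between the steps were not tested. The 9 measured enzymes from squalene synthesis onward all lay below 0 in each contrast, between -1.51 and -0.21 for SU6656 over vehicle, between -1.34 and -0.50 under PDGF, and between -0.78 and -0.06 in the repeat. The 6 measured enzymes of the mevalonate steps lay between -1.83 and -0.26 for SU6656 over vehicle and between -1.32 and -0.29 under PDGF. In the repeat 4 of 5 of them lay below 0, between -1.13 and 0.12, with Mvk, mevalonate kinase, above 0. The 7 fatty acid genes, such as Fasn, fatty acid synthase, and the desaturase genes Scd1 and Scd2, lay between -0.63 and 0.03 for SU6656 over vehicle and between -0.44 and -0.14 under PDGF, and 0 of them were called. In the repeat 1 of 5 measured fatty acid genes lay below 0. The SREBP genes themselves were not called, and Srebf1 had log2 ratios of -0.15, 0.45 and 0.32 while Srebf2 had -0.09 and -0.35 in the Src experiment.

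**Figure D2:**
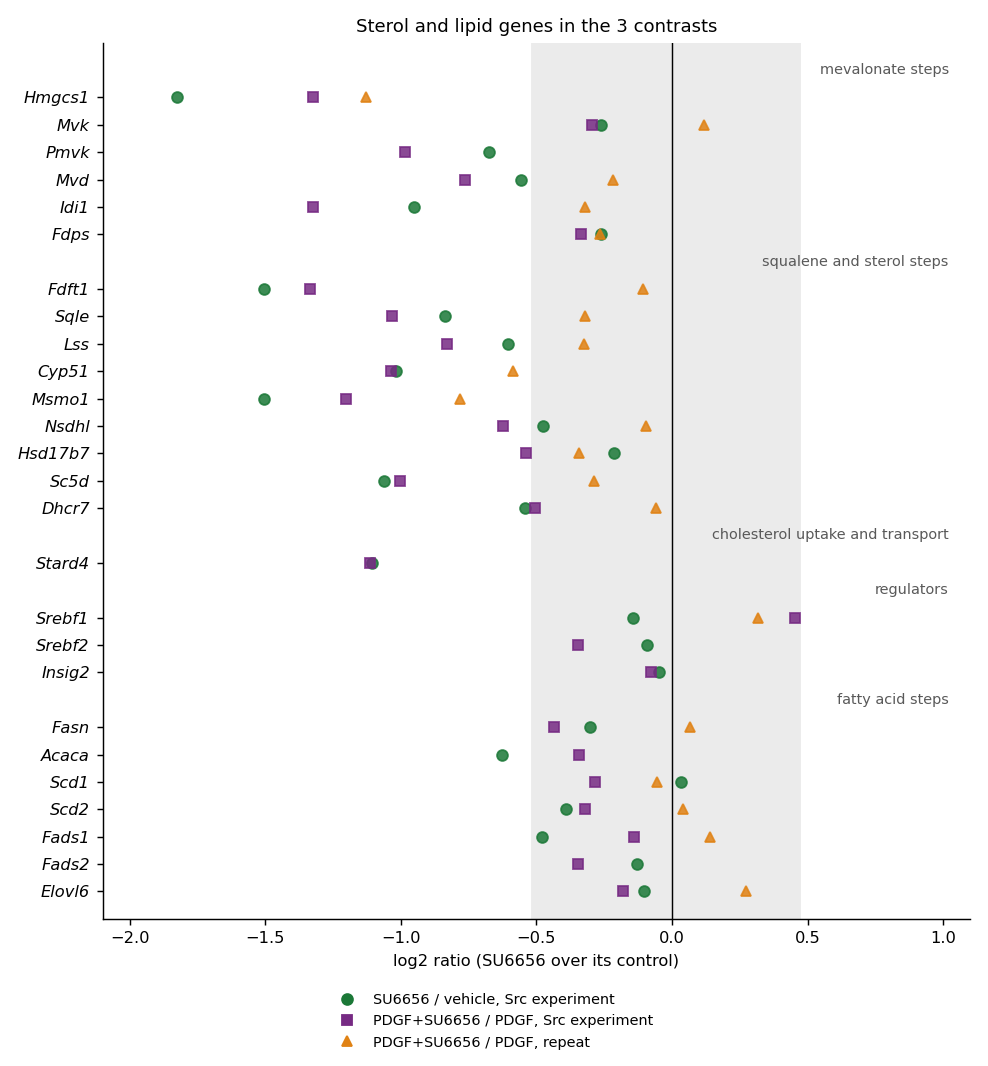
Log2 ratio of each SU6656 array over its control (x axis) for the 26 sterol and lipid genes measured in the Src experiment, grouped by role, with 1 symbol per contrast and the grey band marking the middle 90% of all genes for PDGF with SU6656 over PDGF in the Src experiment. Enzymes from mevalonate to cholesterol reach -1.83 and the fatty acid genes reach -0.63, with the repeat (triangles) nearer to 0 than the Src experiment for most genes.

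Whether the SU6656 change differed with and without PDGF was tested by an interaction term in the Src experiment. limma called 0 of 15838 probe sets, or 0%, with 389 lower (2.46%) and 484 higher (3.06%) at an unadjusted p of 0.05. The interaction for Hmgcs1 was 0.57 (SE 0.175, adjusted p = 0.812), and Fdft1, Msmo1, Cyp51 and Sqle had 0.28, 0.26, 0.13 and -0.02. Those values do not show that the change was equal in both states, since 2 residual degrees of freedom remained. The smallest p was that of Pip5k1a, a lipid kinase gene, at 3.22 (adjusted p = 0.091). The count was 2 without the vehicle array, 3 without the PDGF array, 1 without either LY294002 array and 1 when arrays were scaled to equal medians.

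The sterol genes were then compared between SU6656 and the other inhibitors. Hmgcs1 read 3175.2 with SU6656, 6875.5 with LY294002 and 12854.7 with UO126, against 11424.9 with vehicle. With PDGF present it read 8715.2 with SU6656, 14442.9 with LY294002 and 19116.1 with UO126, against 20098.2 with PDGF alone. The SU6656 arrays were lowest in both states, the LY294002 arrays lay between them and the controls, and the UO126 arrays were close to the controls. The same order held for Msmo1, at 1377.2, 2355.5 and 3805.1 with SU6656, LY294002 and UO126, against 3902.0 with vehicle. A limma contrast of SU6656 minus the mean of UO126 and LY294002 gave -1.22 for Hmgcs1 (SE 0.133, adjusted p = 0.0108), -1.19 for Fdft1, -0.98 for Msmo1 and -0.89 for Cyp51, and 8 of the 26 list members were called lower at their brightest probe set, where 0.228% of all genes were called lower and 0.0217% higher.

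Over all probe sets that contrast called 38 lower, or 0.24%, and 6 higher, or 0.0379%, and at an unadjusted p of 0.05 there were 824 lower (5.2%) and 821 higher (5.18%). Without any 1 of the 8 arrays the count of lower calls dropped to between 2 (without the SU6656 array) and 25 (without UO126), and the higher calls were 0 to 8. It was 0 in both directions without the variance trend, and 6 lower and 0 higher without the filter. Adm, which encodes the vasodilator peptide adrenomedullin, read 179.2 with SU6656, 696.3 with LY294002 and 309.1 with UO126, against 537.3 with vehicle. With PDGF it read 652.6 with SU6656, 2047.8 with LY294002 and 1736.6 with UO126, against 1467.4 with PDGF alone. The SU6656 array was the lowest in both states, and the contrast was -1.35 (limma SE 0.181, adjusted p = 0.0241). Stc1, the glycoprotein hormone stanniocalcin, read 45.5 with SU6656, 223.5 with LY294002 and 237.8 with UO126, against 224.5 with vehicle, and its contrast was -1.73 (limma adjusted p = 0.0323). With PDGF it read 36.8 with SU6656, 232.9 with LY294002 and 169.3 with UO126, against 98.6 with PDGF alone. Both SU6656 values of Stc1 lay near the 36.3 units added before taking log2. The Stc1 contrast ran from -2.30 to -1.18 under 7 other processing settings. With single arrays left out, the Stc1 call was kept in 1 of 8 fits, that without the PDGF array, with adjusted p up to 0.280. The Adm call was kept in 4 of 8 and missed the threshold without either SU6656 array or either LY294002 array, with adjusted p up to 0.204.

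Not every call in this contrast was a change from vehicle. H1f2, a linker histone gene, read 5279.3 with SU6656, 12254.9 with LY294002 and 8058.0 with UO126, against 4782.1 with vehicle, so the SU6656 array lay close to vehicle and the other inhibitors above both. Its contrast was -0.94 (limma adjusted p = 0.00227), while its SU6656 ratios against control were 0.11, -0.09 and -0.24. Fn1, fibronectin, Lpp and Tm2d2 were each called at 1 probe set, with -1.21, -1.23 and -1.19, and their brightest probe sets disagreed, at 0.06, -0.06 and -0.21 without a call. Ptgs2, cyclooxygenase-2, was picked after its values were seen. It read 2031.2 with PDGF and SU6656, 4063.2 with PDGF and LY294002 and 5147.7 with PDGF and UO126, against 3501.4 with PDGF alone, and 2 of its probe sets were called, at -1.03 and -1.07.

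**Figure D3:**
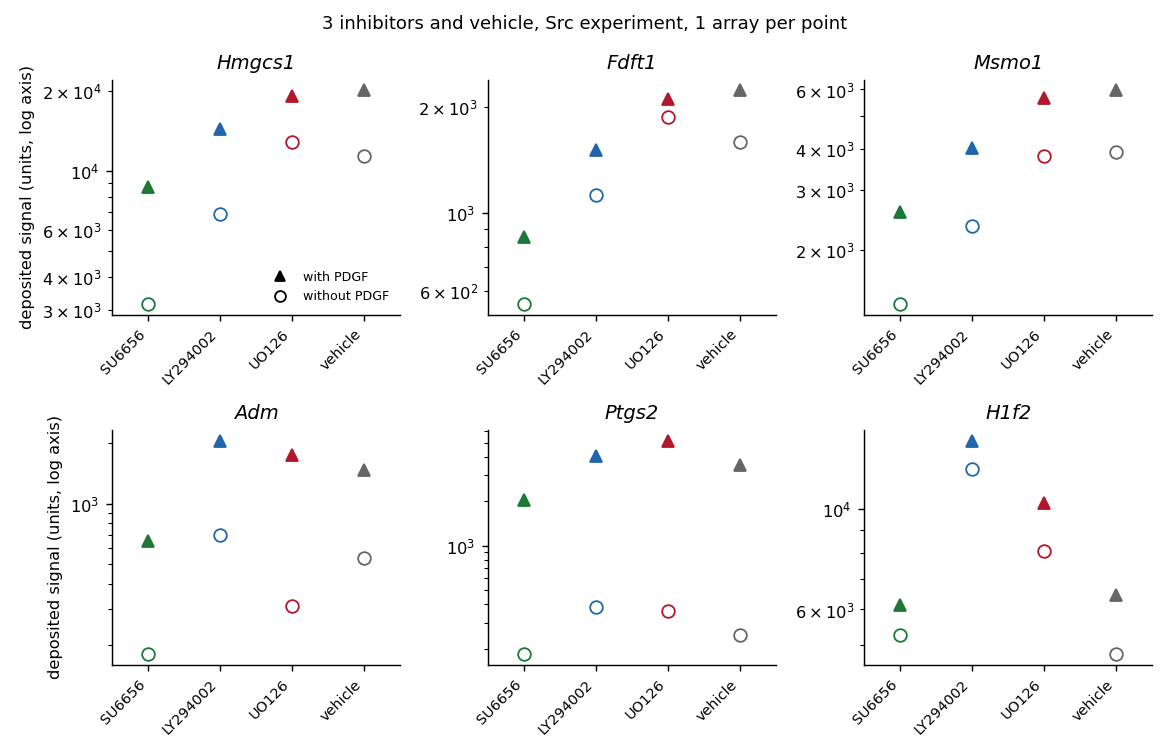
Deposited signal (units, log axis) of 6 genes with SU6656, LY294002, UO126 or vehicle in the Src experiment, 1 array per point, triangles with PDGF and open circles without. Hmgcs1, Fdft1, Msmo1, Adm and Ptgs2 are lowest with SU6656 in each PDGF state, and H1f2 is near its vehicle level with SU6656 and higher with LY294002 and UO126.

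The repeat was fitted with the 9 arrays of its table, in which SU6656 was on 1 array that is assumed to vary like the others. limma called 0 of 8695 probe sets, or 0%, with 290 lower (3.34%) and 226 higher (2.6%) at an unadjusted p of 0.05. Hmgcs1 had the smallest p there, at -1.15 (SE 0.164, adjusted p = 0.292), followed in the sterol list by Msmo1 at -0.80 (SE 0.194, adjusted p = 0.49). The count was 2 without any 1 of the repeat's vehicle array and the untreated and PDGF arrays of a MEK inhibitor experiment in the same table.

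Across the 5530 genes measured in both tables the 3 contrasts were compared pair by pair. Pearson's r was 0.118 between SU6656 over vehicle and PDGF with SU6656 over PDGF in the Src experiment, 0.0743 between PDGF with SU6656 over PDGF and its repeat, and 0.0096 between SU6656 over vehicle and the repeat. These values are across genes of arrays that were normalised together within a table, and are given as a description. The sign was the same in 57.1%, 50.8% and 49.7% of genes in those comparisons. Of genes at least 1.5-fold lower with PDGF and SU6656 in the Src experiment, 211 in number, 41 were also at least 1.5-fold lower in the repeat, which is 19.4% of the first set and 11.9% of the 345 in the second. Over all 5530 genes 6.24% were at least 1.5-fold lower in the repeat and 3.82% in the Src experiment.

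Only 7 genes, or 0.127%, were at least 1.5-fold lower in all 3 contrasts, and 4, or 0.0723%, at least 1.5-fold higher. The 7 were Hmgcs1, Msmo1, Cyp51, Adm, Ccl7, Wnt10a and Ncan. Wnt10a, a secreted Wnt ligand, read 7.1 with SU6656 against 154.4 with vehicle, 33.3 with PDGF and SU6656 against 151.7 with PDGF, and 26.7 against 142.2 in the repeat. It was the lower of each pair, at low signal throughout, with log2 ratios of -2.13, -1.45 and -1.67, and limma did not call it (adjusted p = 0.288). The mean of its 3 ratios, -1.75, was -2.65 with an offset of 5 units and -1.01 with an offset of 100. Ncan, a proteoglycan gene, had 73.8 with SU6656 against 130.8 with vehicle, 39.0 with PDGF and SU6656 against 113.7 with PDGF, and 49.9 against 104.5 in the repeat. Its mean of -0.80 was -1.06 with the offset of 5 and -0.49 with that of 100. The 4 higher genes, Snorc, Il2rb, Pawr and Cd52, had no signal above 285.6 on these 6 arrays, and with an offset of 100 units in place of the table's 20th percentile 0 genes passed. The 7 were 17 without the filter on dim probe sets and 4 with the lowest 50% left out.

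Some immediate early genes had ratios of 1 sign in the 3 contrasts without a call. Egr1, a zinc finger transcription factor, read 355.0 with SU6656 against 522.7 with vehicle, 3776.7 with PDGF and SU6656 against 5825.5 with PDGF, and 1796.4 against 2754.1 in the repeat. Its log2 ratios, -0.52, -0.65 and -0.65, were close to each other, and the limma adjusted p was 0.768. Myc read 289.2 with SU6656 against 403.5 with vehicle, 950.7 with PDGF and SU6656 against 1629.7 with PDGF, and 531.3 against 800.6 in the repeat. Socs3, a feedback inhibitor of cytokine signalling, read 203.0 against 304.4, 695.4 against 1180.1 and 310.2 against 594.7 in the same order. The mean of the 3 Socs3 ratios, -0.73, lay between -0.78 and -0.10 under 9 other processing settings. In all 3 genes PDGF still raised the signal when SU6656 was present, and limma called none of them.

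The next comparison was of PDGF-induced genes, chosen on arrays that did not enter the measurement. Of 73 genes at least 2-fold higher with PDGF in both experiments of the 9-array table, 61 had a ratio below 0 for PDGF with SU6656 over PDGF in the Src experiment, with a median of -0.44. Over all 5530 genes the share below 0 was 47.9% and the median 0.01. At least 1.5-fold lower were 26 of the 73, or 35.6%, where 3.82% of all genes were. For SU6656 over vehicle, without PDGF, 49 of the same 73 genes lay below 0 with a median of -0.13, where 45.6% of all genes did with a median of 0.03. In the other direction, 117 genes at least 2-fold higher with PDGF in the Src experiment had a median of -0.22 in the repeat, 83 of them below 0 and 33 at least 1.5-fold lower, where the shares over all genes were 47.3% and 6.24% and the median 0.02. Only 54 of the 117 were also among the 73, so many were not at least 2-fold higher with PDGF in both experiments of the 9-array table.

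**Figure D4:**
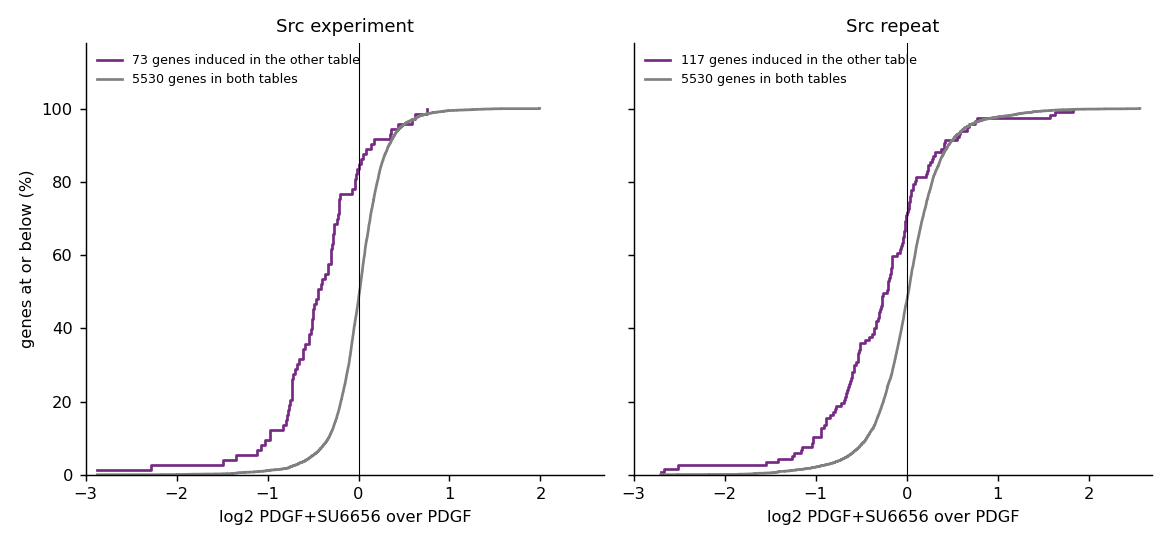
Cumulative share of genes (%) by log2 PDGF with SU6656 over PDGF, for genes induced by PDGF in the other table (purple) and for all genes in both tables (grey), in the Src experiment (left, 73 induced genes) and the repeat (right, 117). The purple curves lie left of the grey ones, with medians of -0.44 and -0.22 against 0.01 and 0.02.

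The chemokine genes Ccl7 and Ccl2, which draw monocytes to tissue, were among the lowest in both experiments. Ccl7 read 134.0 with PDGF and SU6656 against 804.4 with PDGF in the Src experiment, and 410.2 against 2606.6 in the repeat. Ccl2 read 208.8 with PDGF and SU6656 against 665.7 with PDGF in the Src experiment, and 424.6 against 2730.3 in the repeat. With PDGF present the SU6656 array was the lower one each time, with log2 ratios of -2.28 and -2.67 for Ccl7 and -1.48 and -2.70 for Ccl2. Without PDGF both genes were dim, and Ccl2 read 80.5 with SU6656 against 23.4 with vehicle while Ccl7 read 6.7 against 63.4. The SU6656 term was not called for either gene (limma adjusted p of 0.925 for Ccl2 and 0.371 for Ccl7), and neither was the interaction (0.425 and 0.812).

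Bcl3, a nuclear cofactor of NF-kB, read 64.6 with PDGF and SU6656 against 416.6 with PDGF, and 64.6 against 459.1 in the repeat. Without PDGF it read 56.3 with SU6656 against 51.4 with vehicle, so the arrays with PDGF and SU6656 lay near the level without PDGF. Fos, a component of the AP-1 transcription factor, read 254.8 with PDGF and SU6656 against 719.9 with PDGF, and 120.0 against 318.8 in the repeat. Gdnf, a neurotrophic factor gene, read 31.1 with PDGF and SU6656 against 454.2 with PDGF, and 235.5 against 489.7 in the repeat. All 3 genes had lower signal with SU6656 in both experiments under PDGF, and their SU6656 term was not called in the limma fit (adjusted p of 0.650 for Bcl3, 0.740 for Fos and 0.547 for Gdnf). Csf1, macrophage colony-stimulating factor, and Rgs16, a G-protein regulator, had ratios of -1.07 and -0.37 in the Src experiment and -0.79 and -1.41 in the repeat.

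Other PDGF-induced genes had ratios near 0 with SU6656. Nr4a1, an orphan nuclear receptor gene, read 11743.8 with PDGF and SU6656 against 11853.0 with PDGF, and 7494.7 against 8311.3 in the repeat. Fosb, another AP-1 component, read 2614.9 with PDGF and SU6656 against 2521.0 with PDGF, and 3047.3 against 3092.9 in the repeat. Jun, a further AP-1 component with a weaker response, read 2852.9 with PDGF and SU6656 against 2801.2 with PDGF, and 1257.0 against 1206.5 in the repeat. PDGF over vehicle was 1.07 on the log2 scale for Jun in the Src experiment and 0.85 in the repeat, where Nr4a1 had 4.95 and 4.47 and Fosb 3.75 and 3.68. The SU6656 ratios of these 3 genes under PDGF lay between -0.11 and 0.05 on the log2 scale. At the upper end, Per1, a clock gene, had 0.62 in the Src experiment and -0.57 in the repeat, and Zfp36l2, an RNA-binding protein gene, had 0.44 and 0.01. Of the genes chosen in the Src experiment, Sh3bp1, Laptm5 and Slc35g3 had the highest ratios in the repeat, 1.83, 1.63 and 1.58. PDGF did not raise these 3 genes in the repeat, where log2 PDGF over vehicle was -0.01, -0.59 and -0.15. In the Src experiment they had 0.27, -1.33 and -0.88 under PDGF, ratios over the PDGF array that chose them.

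**Figure D5:**
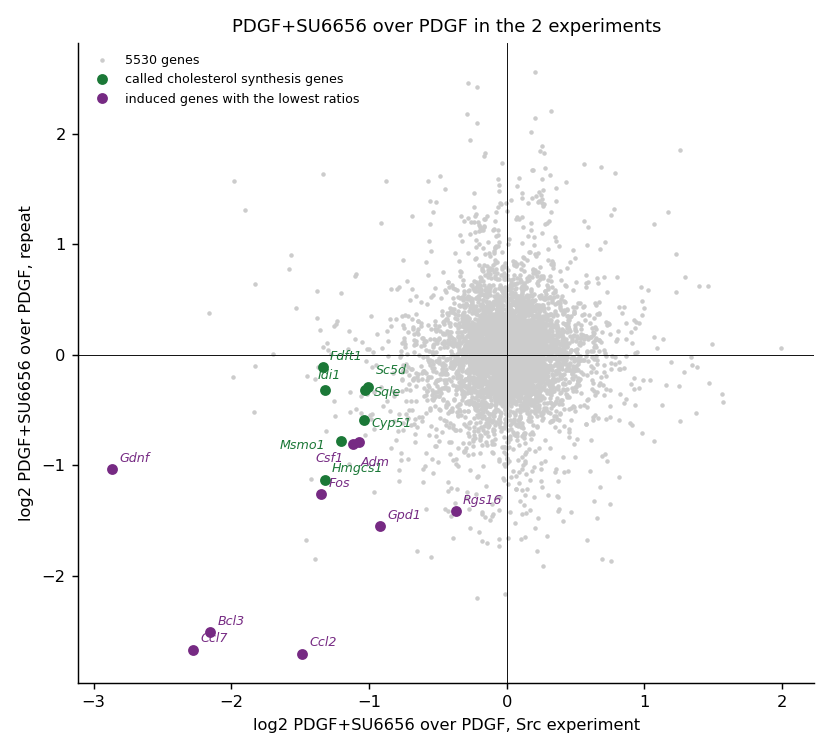
Log2 PDGF with SU6656 over PDGF in the Src experiment (x axis) and in the repeat (y axis), 1 grey point per gene over 5530 genes, with called cholesterol synthesis genes in green and induced genes named for the lowest ratios in purple. Named genes lie at the lower left, with Ccl7 at -2.28 and -2.67, Bcl3 at -2.16 and -2.51, and Hmgcs1 at -1.32 and -1.13.

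Lists of pathway genes other than the sterol list had 0 members called for the SU6656 term of the Src experiment at their brightest probe set. Of 37 immediate early factors measured there 0 were called, with medians of -0.11 for SU6656 over vehicle and -0.23 under PDGF, and -0.27 over 34 measured in the repeat. Of the 33 in both tables, 19 were lower in all 3 contrasts and 4 were higher, where 12.6% and 16.3% of all genes in both tables were. The medians over all genes were 0.03 for SU6656 over vehicle, 0.01 under PDGF and 0.01 in the repeat. Feedback genes of the MAP kinase route, such as Dusp6, a phosphatase of ERK, and Errfi1, an inhibitor of the EGF receptor, had medians of -0.13, -0.36 and -0.50 in the 3 contrasts. Dusp6 read 685.5 with PDGF and SU6656 against 1397.1 with PDGF, and 2022.3 against 2868.0 in the repeat. Errfi1 read 4527.7 with PDGF and SU6656 against 7900.8 with PDGF, and 3968.0 against 7428.8 in the repeat, lower with SU6656 in each. Growth factor and cytokine genes had medians of -0.12, -0.28 and -0.54, and NF-kB target genes -0.03, -0.13 and -0.57. In the contrast of SU6656 with the other inhibitors, 2 of 15 growth factor or cytokine genes and 1 of 17 NF-kB targets were called lower. Over all genes 0.228% were called lower there. The lists of matrix, aryl hydrocarbon receptor, FOXO, p53 and hypoxia genes also had 1 lower call each, and a gene can be on more than 1 list.

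Targets of serum response factor gave 0 calls, and some had unlike ratios with and without PDGF. Their medians were -0.11 for SU6656 over vehicle, 0.05 under PDGF and 0.00 in the repeat, with 0 of 26 called. Ccn2, a matricellular protein gene, read 204.3 with SU6656 against 675.5 with vehicle, but 4160.4 with PDGF and SU6656 against 4875.5 with PDGF, and 5521.3 against 5415.9 in the repeat. Ccn1, a related gene, read 146.4 with SU6656 against 393.2 with vehicle, 6996.3 with PDGF and SU6656 against 6655.8 with PDGF, and 752.0 against 813.4 in the repeat. Both had lower signal with SU6656 in the absence of PDGF, from 1 pair of arrays each, and neither was called. Their interaction terms, 1.37 for Ccn2 and 1.54 for Ccn1, were not called either. Fosl1, an AP-1 component, ran in the same way, at 29.6 with SU6656 against 156.3 with vehicle and 1426.2 with PDGF and SU6656 against 1835.7 with PDGF. Its value of 29.6 lay below the 36.3 units added before taking log2, and its interaction of 1.71 was not called.

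The genes of the inhibited kinases were themselves not called. Of 6 measured Src family kinase genes, Src read 284.1 with SU6656 against 158.3 with vehicle, 256.1 with PDGF and SU6656 against 249.7 with PDGF, and 208.8 against 159.7 in the repeat. Fyn had log2 ratios of 0.16, 0.17 and 0.24, and Yes1 had 0.10, -0.45 and 0.59. The ratios of Src and Fyn were above 0 in all 3 contrasts, at adjusted p of 0.782 for Src and 0.699 for Fyn in the limma fit of the Src experiment. These were 2 of the 6, where 16.3% of all genes in both tables were higher in all 3. Blk had -0.01, -0.62 and 0.29, Fgr had 0.35, -0.0008 and -0.32, and Frk had -0.43, 0.22 and -0.08. The PDGF receptor genes Pdgfra and Pdgfrb had 0.03 and -0.53 for SU6656 over vehicle, 0.31 and -0.16 under PDGF, and 0.01 and -0.06 in the repeat. Fibroblast markers had medians of 0.03, 0.02 and 0.01, with 0 of 13 called.

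No gene was called higher with SU6656. The smallest p among higher ratios was that of Prkrip1, which encodes a double-stranded RNA-binding protein, at 1.66 (SE 0.247, limma adjusted p = 0.0624). It read 231.4 with SU6656 against 64.4 with vehicle and 247.2 with PDGF and SU6656 against 38.8 with PDGF, and 313.1 with LY294002 and 360.3 with UO126. The arrays of the other inhibitors were as high as those with SU6656, and its contrast with them was -0.18. Neat1, a long noncoding RNA gene, read 11267.1 with SU6656 against 8361.6 with vehicle and 12863.1 with PDGF and SU6656 against 9414.1 with PDGF (0.38, limma adjusted p = 0.112). In the repeat, Cuedc2 and Map2k2, the gene of the kinase MEK2, had ratios of -0.40 and 0.35 where the Src experiment gave 0.50 and 0.44 for SU6656 over vehicle.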

How the data were processed

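The deposited files hold intensity on a linear scale, 1 value per probe set and array, and by those values each array has nearly the same mean after 2% trimming at each end (500.2 to 500.4 units), a scaling that no label describes. The software is unnamed, and a genome build is likewise not given in the sources used here. Values were quantile normalised per table without control probe sets and put on a log2 scale after adding each table's 20th percentile (36.3 units in the Src table, 21.2 in the other), so changes of dim genes are understated. The lowest 30% of probe sets were left out, and 15838 and 8695 remained. limma 3.58.1 in R 4.3.3 (lmFit, eBayes with trend, Benjamini-Hochberg over all probe sets) was used, and was also run on simulated data. Those data had independent noise with the spread of the same fits, so they do not show how the fits behave on these arrays. Genes were named from probe sets with 1 symbol (20393 of 22690 and 10855 of 12488) and summarised by their brightest probe set. The named genes are the largest called changes, the most uniform over the 3 contrasts, the extremes of the induced sets, and the leading members of each list. Members, lists and rules were chosen with earlier results of these data known. PDGF state pairs the arrays in the fit. Separate cultures are not stated in the labels, so p-values measure only spread of these arrays about the fitted terms, possibly technical. In the main fit of the Src experiment that spread also holds any unequal effect of an inhibitor with and without PDGF.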

Additional observations from a re-analysis of the deposited data

How the results depend on the processing

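The settings tried were median scaling, deposited values, offsets of 5 and 100 units, no filter and a filter on the lowest 50%. Also tried were no variance trend, no cross-matching probe sets, the mean over probe sets and a 3-fold induction. Quantiles over fewer arrays and other arrays in the fit were tried as well. Of 145 summary values under these, 123 stayed within set limits, which were 1.5 times for counts. For medians the limits were the same sign and 1 SD, taken across the medians of the unlike contrasts. A median near 0 can stay within that SD with its effect lost, so such medians are not shown to be stable. The exceptions follow. For SU6656, the 17 lower calls were 11 without the filter, 0 without the variance trend and 0 with no replicate block (no PDGF term pairing the arrays), and the 8 sterol genes were 0 under both of the last; 1 probe set rose in place of 0 with median scaling, with the offset of 5, and with the 4 vehicle and SU6656 arrays alone. The interaction had 1 call with median scaling in place of 0. Against the other inhibitors, the 38 lower calls were 6 without the filter and 0 without the trend, and the 6 higher were 3 with median scaling and 0 under both of those. Genes at least 1.5-fold lower in the 3 contrasts, 7, were 17 without the filter and 4 with the stricter one; the 4 higher were 2 with median scaling, 2 with deposited values, 0 with the offset of 100, 8 with that of 5, 9 without the filter and 0 with the stricter one. With single arrays left out, the ranges were 0 to 19 lower and 0 to 0 higher calls, 0 to 8 sterol genes, 0 to 3 interaction calls, 2 to 25 lower and 0 to 8 higher against the other inhibitors, and 0 to 2 in the repeat. The cause was not tested in any of these, except that leaving an array out leaves fewer samples. No direction reversed among these results. Arrays limit all results: each contrast is 1 array against 1.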
